A study of Mus musculus with 34 samples.

Results

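Poised distal regions were selected on 3 peak lists of untreated CTCF-WT dendritic cells: H3K4me1 peaks that lay outside promoters, overlapped an H3K27me3 peak at least 1 kb wide and overlapped no H3K27ac peak. As promoter counted the 2.5 kb before and after the first base of each gene's longest transcript. Starts of other transcripts lay within 2.5 kb of 400 members (9.51%). The rule found 4206 regions among 94694 H3K4me1 peaks, 69867 of which were distal and 54759 distal without H3K27ac. They were set beside 47320 distal H3K4me1 peaks with neither H3K27ac nor H3K27me3, called primed, and 13978 distal H3K4me1 peaks with H3K27ac and no H3K27me3 peak, called active. A further 3233 distal peaks without H3K27ac overlapped only H3K27me3 peaks under 1 kb and stayed out of both groups.

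The cells were mouse bone marrow-derived dendritic cells (BMDCs), grown for 6 days with the cytokine GM-CSF from C57BL/6 mice aged 8 weeks and selected for CD11c. CTCF-WT cells carried a tamoxifen-inducible Cre (CreER), and CTCF-KO cells carried CreER and loxP-flanked alleles of Ctcf (CreER;CTCF fl/fl). Both received 4-OH tamoxifen on the first day of culture, so the controls share the Cre and the drug. Cells were left unstimulated (WT, KO) or received lipopolysaccharide (LPS), a bacterial ligand of the receptor TLR4, at 100 ng/ml for 3 h (WTLPS, KOLPS). The STAT5 lists came from WT and KO cells given GM-CSF anew for 15 min.

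There were 30 peak lists, 1 for each antibody and condition, so no difference between conditions could be set against a spread between replicates and no p-value is given. Shares of regions carry 95% Wilson intervals in parentheses, and differences between region sets carry Newcombe intervals, in percentage points. Both cover counting error only. Read depth is not in the lists. The most frequent background level that the peaks allow to be recovered was 1.11 fragments per base for H3K27me3 in KO and 1.12 in WT, against 0.83 in WTLPS and 0.98 in KOLPS. For H3K27ac it was 0.75 to 0.80 in the CTCF-KO cells and 1.17 to 1.20 in the CTCF-WT cells. Recovery worked for 100% of the H3K27ac peaks examined but for only 14.0 to 18.3% of the H3K27me3 peaks, so the H3K27me3 levels are less certain. The dendritic cell label was checked at promoters of WT: 13 of 13 dendritic and myeloid marker genes had an H3K4me3 peak and 12 an H3K27ac peak. The remaining gene, Flt3, had H3K27me3. Of 5 T cell markers 4 had H3K27me3, 1 had H3K27ac and 2 had H3K4me3. Of 4 B cell markers 2 had H3K27me3, 0 had H3K27ac and 2 had H3K4me3. At promoters, here and below, H3K27me3 in WT counted only peaks of at least 1 kb, and in other conditions peaks of any width.

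H3K4me1 is a methylation of histone H3 found at enhancers, the distal elements that raise transcription of genes, whether or not they are in use. H3K27ac is placed on the same histone at enhancers in use, and H3K27me3 is placed by Polycomb repressive complex PRC2 at genes and domains kept silent. Acetylation and trimethylation cannot sit on the same lysine. Distal regions with H3K4me1, H3K27me3 and no H3K27ac are often called poised enhancers and were described first in embryonic stem cells, where many lie near developmental genes. A peak list cannot tell whether both marks sit on the same nucleosome, the same allele or in the same cell.

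The sequences shown first are 200-bp windows centred on the summits of peaks at members named below, because they hold the motif of the bound factor or a motif of AP-1, a factor that LPS activates. All are read 5′ to 3′ on the + strand of GRCm38 (mm10), and capitals mark the motif match. The windows at CTCF peaks near Usp38 and Ccl2 hold the CTCF core motif on the + strand. They lie outside the member, with 1431 bp in between at Usp38 and 657 bp at Ccl2, inside a CTCF peak that reaches into it. Both peaks were called in WT and not in KO.
Usp38 CTCF, chr8:81349528-81349727: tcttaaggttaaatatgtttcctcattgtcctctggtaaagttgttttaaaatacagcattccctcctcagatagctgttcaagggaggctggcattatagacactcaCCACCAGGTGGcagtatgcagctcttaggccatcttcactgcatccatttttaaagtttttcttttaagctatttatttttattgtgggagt
Ccl2 CTCF, chr11:81996207-81996406: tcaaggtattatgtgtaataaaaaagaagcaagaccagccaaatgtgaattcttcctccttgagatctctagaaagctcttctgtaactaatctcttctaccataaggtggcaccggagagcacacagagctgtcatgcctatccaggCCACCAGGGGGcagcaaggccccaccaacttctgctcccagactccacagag

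Windows at p65 peaks of WTLPS near Slc5a1, Plpp3 and Slc28a3 hold the NF-kB motif, on the - strand at Slc28a3. The Plpp3 window also holds the AP-1 motif, TGANTCA, as does the window near Thg1l, where no NF-kB match was found. The last window lies at the H3K27ac summit of WTLPS near Extl2 and holds AP-1. Among the windows of the 8 members named for H3K27ac in WTLPS, it alone held an NF-kB or AP-1 match.
Slc5a1 p65, chr5:33095535-33095734: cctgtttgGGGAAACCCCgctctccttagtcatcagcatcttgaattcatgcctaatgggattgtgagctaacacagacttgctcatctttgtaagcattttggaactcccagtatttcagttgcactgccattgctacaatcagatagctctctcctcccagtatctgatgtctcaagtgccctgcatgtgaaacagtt
Plpp3 p65, chr4:105268776-105268975: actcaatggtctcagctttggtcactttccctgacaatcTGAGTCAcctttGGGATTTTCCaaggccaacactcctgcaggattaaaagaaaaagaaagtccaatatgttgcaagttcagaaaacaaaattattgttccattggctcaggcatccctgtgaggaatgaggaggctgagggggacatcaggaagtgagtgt
Slc28a3 p65, chr13:58622684-58622883: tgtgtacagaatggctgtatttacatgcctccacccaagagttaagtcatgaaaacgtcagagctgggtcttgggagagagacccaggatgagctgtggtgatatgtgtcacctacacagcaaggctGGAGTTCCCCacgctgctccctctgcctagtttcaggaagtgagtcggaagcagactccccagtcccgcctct
Thg1l p65, chr11:45967041-45967240: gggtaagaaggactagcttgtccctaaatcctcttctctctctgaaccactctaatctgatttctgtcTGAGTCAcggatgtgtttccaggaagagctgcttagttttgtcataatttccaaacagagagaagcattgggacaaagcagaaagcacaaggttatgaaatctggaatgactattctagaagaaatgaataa
Extl2 H3K27ac, chr3:116046835-116047034: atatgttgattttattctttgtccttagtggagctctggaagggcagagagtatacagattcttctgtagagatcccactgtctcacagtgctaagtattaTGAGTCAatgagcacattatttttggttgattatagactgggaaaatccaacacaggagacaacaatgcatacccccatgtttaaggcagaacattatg

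Poised regions were close in H3K4me1 width to primed ones, and most lay under H3K27me3 over at least 50% of their length. Some were wider than their H3K27me3 peak, such as the widest member, with 16427 bp against 9180 bp. Their median width was 1124.5 bp (quartiles 530 and 2258.75 bp, highest 16427 bp), against 977.5 bp for primed and 3637 bp for active regions. The median −log10 q of the H3K4me1 peak, the score by which the peak caller ranks a peak against background, was 1.70 in poised, 1.67 in primed and 2.59 in active regions. The H3K27me3 peaks that held a member numbered 4045, or 12.3% of the 32948 peaks of at least 1 kb. Their median width was 2575 bp, against 1818 bp for all 32948. A median of 84.3% of a member was covered by H3K27me3, 1841 members (43.8%) were covered in full and 2839 (67.5%) over at least 50% of their length. Since these lists chose the members, the values are a description.

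**Figure D1:**
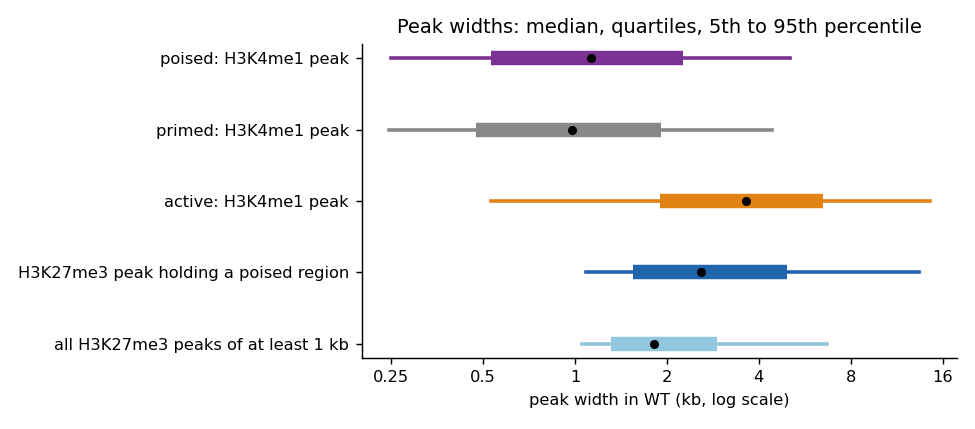
Widths of WT peaks in kb on a log scale. Points are medians, thick bars reach from the lower to the upper quartile and thin lines from the 5th to the 95th percentile. Poised H3K4me1 peaks (median 1124.5 bp) are close in width to primed ones (977.5 bp) and shorter than active ones (3637 bp).

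At the limits of the rule, the H3K27me3 peak was 1000 bp wide at members chr13:43952590-43954238 and chr15:58590729-58591229, and 999 bp wide at the regions just left out, chr14:121413842-121414857 and chr4:129236528-129240293. The members nearest to a promoter lay 2501 bp from a start site, and the closest regions left out lay 2499 and 2492 bp from one.

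Members gathered in groups. Joining those within 5 kb left 3402 groups, 436 H3K27me3 peaks held more than 1 member and 1 peak held 9. The widest H3K27me3 peak, of 91011 bp, lay outside genes in the Fam49a region on chromosome 12 and held the 3 members with the widest H3K27me3 peak, chr12:12476506-12479858, chr12:12513590-12514435 and chr12:12515502-12515940, at 214, 251 and 253 kb from the Fam49a start site. All 3 had H3K27me3 in all 4 conditions. The first kept H3K4me1 in all 4, and the other two had it in WT and KO but in neither list with LPS. None of the 3 had an H3K27ac, CTCF, SMC1, p65 or STAT5 peak in any condition.

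The centre of a member lay outside genes in 53.7% of cases (52.2 to 55.2%), in an intron in 42.6% and in an exon in 3.73%. Primed regions lay outside genes in 33.5% and in introns in 61.2%. The X chromosome held 7 members, 0.166% (0.0806 to 0.343%), against 3.40% of the primed regions and 0.428% of the H3K27me3 peaks of at least 1 kb. The nearest WT H3K27ac peak lay a median of 31.3 kb from a member and 13.6 kb from a primed region, and within 1 kb of 59 members (1.40%) and 3.83% of primed regions.

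Promoters of the nearest genes were scored on the same WT H3K27me3 list that chose members and left out primed and active regions. The contrast between the sets is therefore not independent of the rule. Shares count regions, so a gene nearest to several members counts more than once. At 58.2% of members (56.7 to 59.6%) the promoter of the nearest gene had an H3K27me3 peak of at least 1 kb in WT. It was 18.0% of primed and 13.7% of active regions, and narrower peaks were not counted. An H3K27ac peak lay at that promoter for 32.8% of members, 62.0% of primed and 71.9% of active regions, and H3K4me3 for 66.3%, 77.1% and 78.8%. The start site lay a median of 30.1 kb away, against 35.8 kb for primed and 33.0 kb for active regions. Wide H3K27me3 peaks can cover a promoter and a member at once, and how far this makes up the difference in promoter H3K27me3 was not tested.

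Of 21951 protein-coding genes, 24.6% had a poised region within 100 kb of the start site. Among 92 homeobox and other developmental transcription factors, most of which are silent in blood cells, 66 had one (71.7%, 61.8 to 79.9%) and 96.7% had H3K27me3 at the promoter. Lhx2, a LIM-homeobox factor, had 9 members, and Hoxa9 and Hoxa10 had 6 each. Hox genes stand in clusters and count the same members more than once: Evx2, Hoxd10, Hoxd11 and Hoxd13 had 5 each.

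Genes of the T, B and natural killer cell lineages had a member at 20 of 40 (50%, 35.2 to 64.8%). In WT, 40% of their promoters had an H3K27me3 peak of at least 1 kb and 20% had H3K27ac. Lef1, a factor of T cell development, had 6 members, and Blk, a kinase of B cells, Cd28, a co-stimulatory receptor of T cells, and Ncr1, a receptor of natural killer cells, had 4 each. Gata3, which directs T cell fate, had 3. Promoters carried an H3K27me3 peak of at least 1 kb at Lef1, Blk, Ncr1 and Gata3 but not at Cd28, which had an H3K27ac peak in WTLPS.

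LPS-response genes also had a member at 26 of 52 (50%, 36.9 to 63.1%). In WT, though, only 15.4% of them had an H3K27me3 peak of at least 1 kb at the promoter and 80.8% had H3K27ac there. Ccl2, a chemokine that draws monocytes, had 11, Il12a, the p35 subunit of interleukin-12, had 10, and Edn1, endothelin-1, had 7. Csf2, which encodes GM-CSF, and Ifnb1, interferon-β, had 6 each, and Cd86, a co-stimulatory ligand, and Rsad2, an antiviral protein, had 3 each. At the Il12a promoter H3K4me3 and H3K27me3 peaks were called in WT and an H3K27ac peak appeared in WTLPS. The Csf2 promoter had H3K27me3 in WT and KO and no H3K27ac peak in WT, WTLPS or KO.

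Polycomb complex genes had a member at 15 of 33 (45.5%, 29.8 to 62.0%). In WT, 18.2% of their promoters had an H3K27me3 peak of at least 1 kb and 72.7% had H3K27ac. Over all protein-coding genes these shares were 18.0% and 44.1%. Rybp, a subunit of variant PRC1 complexes, had 15 within 100 kb and H3K27me3 at its promoter in WT and KO, and Epop, a partner of PRC2, had 4. Myeloid and dendritic cell genes stood closest to the background, with 11 of 40 (27.5%, 16.1 to 42.8%). Mertk, a receptor for dying cells, and Fcgr1, an Fc receptor, had 6 each, and Maf, a transcription factor of macrophages, had 4. H3K27me3 lay at the promoters of Mertk and Maf. Over this list only 12.5% of promoters had an H3K27me3 peak of at least 1 kb in WT, and 77.5% had H3K27ac.

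**Figure D2:**
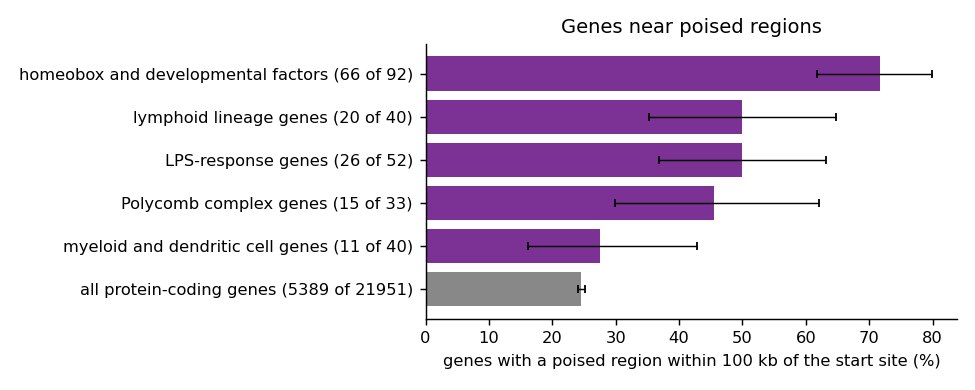
Share of genes with a poised region within 100 kb of the start site, in percent, for 5 gene lists (purple) and all protein-coding genes (grey). Lines are 95% Wilson intervals; homeobox and developmental factors stand at 71.7% and myeloid and dendritic cell genes at 27.5%, with all genes at 24.6%.

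Counted by the nearest gene, members fell to 2217 genes, of which 138 had 5 or more and took 991 members (23.6%). Rybp had the most, 24 members over 327 kb, of which 22 kept an H3K27me3 peak in KO and 0 had H3K27ac in WTLPS or KO. Maf and Adgrl2 had 16 each, Lifr, the receptor of leukaemia inhibitory factor, Cpvl and Serp2 had 15, and Bach2, a repressor in lymphocytes, and S1pr1, a receptor for sphingosine 1-phosphate, had 12. H3K27ac in WTLPS was frequent near a few of these genes. It was called at 5 of 11 members nearest to Il12a, 5 of 9 nearest to Coq2 and 4 of 13 nearest to Cdkn2b, which encodes the cell cycle inhibitor p15. These genes were chosen for their counts after the values were seen.

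Members differed little from other distal regions in base composition. The 500 bp at the centre had a median GC content of 42.0%, against 41.6% in all distal, 41.0% in primed and 43.6% in active regions, and a CpG observed to expected ratio of 0.186, 0.167, 0.164 and 0.172. Windows with a GC content of at least 50% and a ratio of at least 0.6, as in CpG islands, were 30 of 4205 members (0.713%, 0.5002 to 1.02%) and 0.0465% of primed regions. The NF-kB motif lay in 4.35% of members (3.78 to 5.01%), 3.46% of primed, 5.50% of active and 3.99% of all distal windows. AP-1 (TGANTCA), STAT5 (TTCNNNGAA) and PU.1 (GAGGAAGT) lay in 17.2%, 18.2% and 6.09% of members, against 17.4%, 17.01% and 5.69% of all distal windows. The CTCF core lay in 0.380% (0.234 to 0.617%) of members and 0.690% of all distal windows. Motifs were searched on both strands without mismatches.

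LPS was followed by an H3K27ac peak at 258 of the 4206 members, 6.13% (5.45 to 6.90%). The background, all 54759 distal H3K4me1 peaks without H3K27ac in WT, stood at 8.49%, and primed regions at 8.73%, a difference of -2.59 points (-3.33 to -1.79) between poised and primed. Poised regions thus gained the mark less often than primed ones, and this held in 4 of 5 width classes. The difference was -2.30 points at 500 bp to 1 kb, -4.16 at 1 to 2 kb, -5.40 at 2 to 4 kb and -5.94 (-10.1 to -1.30) at 4 kb and more. Under 500 bp it was -1.12 (-2.11 to 0.206), which includes 0. With only H3K27ac peaks of −log10 q of at least 5, the share fell to 1.66% and the difference to -0.434 points (-0.804 to 0.0166). KO cells without LPS had H3K27ac at 230 members, and WTLPS exceeded KO by 0.666 points (-0.213 to 1.54), which includes 0. At primed regions WTLPS exceeded KO by 3.61 points (3.32 to 3.91). The H3K27ac background was 0.75 fragments per base in KO and 1.20 in WTLPS, and its part was not tested.

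**Figure D3:**
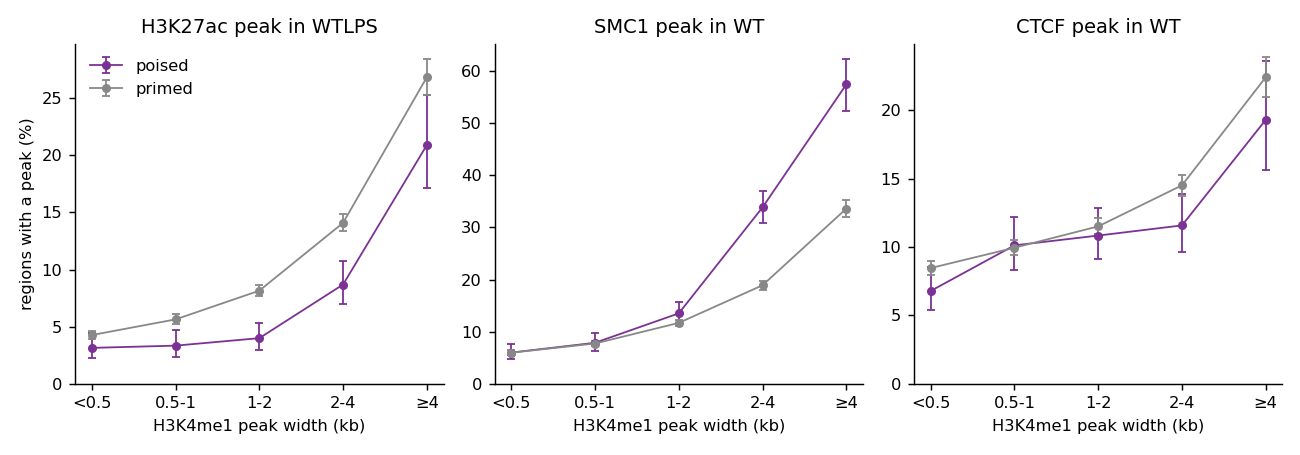
Share of poised (purple) and primed (grey) regions with a peak of H3K27ac (WTLPS), SMC1 (WT) and CTCF (WT), in percent, by width of the WT H3K4me1 peak in kb, with 95% Wilson intervals. H3K27ac lies lower in poised regions at all widths, with overlapping intervals under 0.5 kb, SMC1 lies higher from 2 kb (33.8% against 18.9% at 2 to 4 kb), and CTCF overlaps between the sets in most classes.

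The gain was smaller where H3K27me3 was wider. H3K27ac was called in WTLPS at 7.39% of 1393 members whose H3K27me3 peak was 1 to 2 kb wide, 6.48% of 1189 at 2 to 4 kb, 5.31% of 866 at 4 to 8 kb and 4.22% (3.01 to 5.90%) of 758 at 8 kb and more. The intervals of the first and last class do not overlap, while those of neighbouring classes do. The H3K4me1 width of these classes was close, with medians of 1209, 1121, 1049.5 and 1107.5 bp.

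Most members that gained H3K27ac still had an H3K27me3 peak. In WTLPS 405 H3K27ac peaks touched a member, with a median width of 326 bp, against 299 bp at primed regions and 392 bp over the whole list. Their median fold enrichment was 4.55, against 4.15 at primed regions and 4.57 over the list. Of the 362 with a summit inside the member, 46.1% (41.1 to 51.3%) had it in sequence under WT H3K27me3, which covered 55.3% of all member bases. The cover of the members with H3K27ac alone was not computed. At members that gained H3K27ac, an H3K27me3 peak was still called in WTLPS in 65.9% of cases, against 69.1% of the others.

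In the reverse direction, from WTLPS to WT, the share was lower. Applying the rule to the WTLPS lists gave 1886 regions, of which 71 (3.76%, 3.00 to 4.72%) had H3K27ac in WT, against 9.45% of primed regions found the same way. Of the 4206 members, 28.1% were also poised by the rule in WTLPS, and of the 1886 regions 61.3% were poised in WT. The H3K27me3 list of WTLPS was shorter and narrower, with 65880 peaks of median width 543 bp against 96475 of 676 bp in WT. The 1 kb rule thus chose unlike sets, and the part of the lists in these shares was not tested.

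The 8 members with the highest −log10 q of the H3K27ac peak in WTLPS lay nearest to Ppp1r12a, Extl2, Coq2, Mtx3, Chd7, Cd40, Inhba and Cog6. In 3 of them, near Extl2, Coq2 and Mtx3, the H3K27ac summit lay inside the member, and in the other 5 the peak reached in from beside it. Cd40 encodes a co-stimulatory receptor of dendritic cells and Inhba a subunit of activin A. The member chr2:165047981-165048202, outside genes at 7.43 kb from the Cd40 start site, had an H3K27ac −log10 q of 19.9 in WTLPS and no H3K27ac peak in KO or KOLPS. Its H3K27me3 peak was called in WT only.

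The member with AP-1 in its H3K27ac window, chr3:116046382-116047680, lay outside genes at 38.9 kb from Extl2. Its H3K27ac −log10 q was 25.8 in WTLPS and 6.01 in KOLPS, with no peak in KO. SMC1 had a −log10 q of 42.4 in WT and 25.1 in WTLPS and CTCF 22.1 in WT, while KO and KOLPS had a peak of neither. H3K27me3 was called in WT, WTLPS and KO.

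Near Coq2, a gene of coenzyme Q synthesis, chr5:100631830-100640625 had H3K27ac with a −log10 q of 23.1 in WTLPS, 5.66 in KO and 18.4 in KOLPS. It lay outside genes and had SMC1 in all 4 conditions and p65 in WTLPS only (7.32). The member nearest to Cog6, chr3:52858679-52861354, had H3K27ac at 16.8 in WTLPS and 13.2 in KOLPS, and p65 at 30.3 and 7.09. Both members thus had H3K27ac after LPS with and without CTCF.

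The members nearest to Ppp1r12a and Chd7 differed from the rest in H3K4me3, the mark of promoters. At chr10:108155932-108161021 its −log10 q lay between 85.1 and 171 over the 4 conditions, and at chr4:8648940-8649524 between 61.8 and 117. Over all members H3K4me3 was called at 345 (8.20%, 7.41 to 9.07%) in WT, against 2.47% of primed and 18.0% of active regions, although promoters had been left out. Of these 345, 114 (33.0%, 28.3 to 38.2%) had the start of a shorter transcript within 2.5 kb, against 7.41% of the members without H3K4me3. It was called at 335 members in WTLPS (7.96%), 433 in KO (10.3%) and 314 in KOLPS (7.47%), while all distal regions stood at 6.23% in WT and 5.58%, 5.89% and 3.996% in the same 3 conditions. From WT to KO the share of members was higher by 2.09 points (1.44 to 2.75), and that of primed regions changed by -0.0359 points (-0.138 to 0.0665). Members with H3K4me3 had CTCF in WT in 21.4% of cases (17.4 to 26.1%), against 9.69% without, and in primed regions it was 30.4% and 11.1%.

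p65, the NF-κB subunit that LPS brings into the nucleus, was called at 12 members in WT and 105 in WTLPS (2.496%, 2.07 to 3.01%), against 3.57% of all distal regions. It was called at 4 in KO (0.0951%) and 18 in KOLPS (0.428%). Primed regions stood at 0.0169% and 0.125% there, and active regions at 1.33% and 3.90%. The p65 list held 504 peaks in KO and 1752 in KOLPS, against 5465 in WTLPS, and the part of list size was not tested. In WTLPS, active regions made up 1707 of the 2494 distal regions with p65. Against primed regions (0.856%) the poised share was higher by 1.64 points (1.202 to 2.16). Distal regions with H3K27me3 under 1 kb only stood at 2.01%, and the poised share differed from it by 0.486 points (-0.207 to 1.16), which includes 0. The share rose with width, from 0.203% of members under 500 bp to 11.1% at 4 kb and more, where primed regions had 3.47%. All 12 members with p65 in WT also had it in WTLPS.

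Of the 105 members with p65, 42 had H3K27ac in WTLPS (40%, 31.1 to 49.6%), against 216 of the other 4101 (5.27%, 4.62 to 5.99%). The share was lower than at primed regions with p65, 247 of 405 (61.0%, 56.2 to 65.6%), and at active ones, 1657 of 1707 (97.1%). So 216 of the 258 members that gained H3K27ac had no p65 peak. The same 105 members had H3K27ac in 42 cases in KO without LPS and 50 in KOLPS (47.6%), where 17 of them had p65. They also had SMC1 in WT in 68 cases (64.8%), before p65 was called at most of them, and in 90 in WTLPS (85.7%), where primed regions with p65 stood at 39.5% and 71.4%. Width moves with p65 as given above, and its part in these differences was not tested.

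The NF-kB motif lay within 100 bp of the p65 summit at 9 of 42 members with H3K27ac in WTLPS (21.4%, 11.7 to 35.9%) and 3 of 63 without (4.76%, 1.63 to 13.1%). The intervals overlap. In primed regions it was 17.004% and 13.3%. The median −log10 q of p65 was 9.65 with H3K27ac and 5.14 without.

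The 5 members with the strongest p65 lay nearest to Slc5a1, Fndc3b, Plpp3, Slc28a3 and Thg1l, all outside genes and each with the p65 summit inside. Near Slc5a1, a sodium-glucose transporter, chr5:33095601-33097205 had p65 at a −log10 q of 59.7 in WTLPS and 11.9 in KOLPS. No p65, SMC1 or H3K27ac peak was called in WT or KO, and SMC1 (23.3 and 7.42) and H3K27ac (6.62 and 7.26) came with LPS in WTLPS and KOLPS. H3K27me3 was called in all 4 conditions.

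The widest member, chr4:105256862-105273288, 16427 bp long and 99.5 kb from Plpp3, a phospholipid phosphatase, carried most of the profiled factors. Across WT, WTLPS, KO and KOLPS its SMC1 −log10 q was 105, 131, 67.5 and 72.3, with no CTCF peak in any of them. STAT5 stood at 33.9 in WT and 32.6 in KO, and p65 at 49.5 in WTLPS and 10.7 in KOLPS. H3K27ac, absent from WT by the rule, stood at 14.1, 11.4 and 18.4 in the other conditions.

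The remaining 3 differed in what followed p65. Near Fndc3b, chr3:27790110-27792816 had p65 in all 4 conditions (12.6, 58.0, 12.4 and 17.2 in the order WT, WTLPS, KO, KOLPS), and H3K27ac in KO and KOLPS but not in WTLPS. Near Slc28a3, chr13:58618149-58625521 had p65 in all 4 too (15.1, 47.4, 6.09 and 14.3) and H3K27ac in WTLPS, KO and KOLPS. Near Thg1l, chr11:45967055-45968177 had p65 in WTLPS only (46.2) and H3K27ac in KOLPS only.

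STAT5, which GM-CSF activates, was called at 167 members in WT (3.97%, 3.42 to 4.60%) and 149 in KO (3.54%), 119 of them in both. In KO, primed regions stood at 1.83% and active regions at 12.9%. All distal regions stood at 5.54% in WT, and primed regions at 2.17%, which was 1.80 points (1.24 to 2.45) lower than members. Distal regions with H3K27me3 under 1 kb only stood at 4.55%, and the poised share differed from it by -0.576 points (-1.53 to 0.343), which includes 0. Of members with STAT5, 92 (55.1%, 47.5 to 62.4%) had the STAT5 motif within 100 bp of the summit, against 66.0% of primed (63.1 to 68.9%) and 56.6% of active regions with STAT5. SMC1 was called in WT at 96 of them (57.5%), against 33.7% of primed and 83.1% of active regions with STAT5. H3K27ac was called in WTLPS at 24 (14.4%, 9.85 to 20.5%), against 5.79% of the other members and 23.5% (21.02 to 26.2%) of primed regions with STAT5.

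CTCF was called at 448 members in WT, 10.7% (9.75 to 11.6%), against 14.2% of all distal and 11.5% of primed regions. The difference from primed regions, -0.891 points (-1.83 to 0.118), includes 0, but in 1 kb centre windows it was -1.12 (-1.96 to -0.209) and with members covered by H3K27me3 over at least 50% it was -2.38 (-3.43 to -1.23). In WTLPS, KO and KOLPS it was -0.990 (-1.88 to -0.0338), -0.858 (-1.298 to -0.338) and -0.455 (-0.793 to -0.0356). Its summit lay inside 274 members (6.51%), so many CTCF peaks reached in from beside the H3K4me1 peak. WTLPS had CTCF at 393 members (9.34%), against 10.3% of primed and 21.9% of active regions. KO had it at 96 (2.28%, 1.87 to 2.78%), against 4.15% of all distal regions. KOLPS had it at 59 (1.40%), against 1.86% of primed and 5.12% of active regions. Of the 448, 84 (18.8%, 15.4 to 22.6%) were called in KO and 364 were not, and of primed regions with CTCF 23.2% (22.1 to 24.3%) were. The 84 had a median WT −log10 q of 112, against 16.2 for the 364.

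The CTCF core motif lay within 100 bp of the summit at 64 of the 448 (14.3%, 11.3 to 17.8%), at 23 of the 84 called in KO (27.4%, 19.0 to 37.7%) and at 41 of the 364 that were not (11.3%, 8.41 to 14.9%). Sites that remained in the KO list thus held the exact core more often, as in primed regions (35.2% and 11.5%).

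The strongest CTCF peaks missing in KO lay at members nearest to Pcdh17, Usp38, Zfp946, Ccl2 and Akr1c18, with a WT −log10 q of 252, 212, 203, 198 and 187. All 5 were called in WTLPS as well (195, 149, 189, 177 and 179), and all 5 summits lay beside the member. In KOLPS a weak CTCF peak (4.16) was called near Zfp946 only. SMC1 was called in WT at 1 of the 5, chr13:4134045-4134862 in an intron of Akr1c18, a steroid dehydrogenase, with 66.2 in WT, 84.3 in WTLPS and no peak in KO or KOLPS. At chr14:84439975-84440800 near Pcdh17, a protocadherin, at chr17:22418962-22420059 near Zfp946 and at the members near Ccl2 and Akr1c18, H3K27me3 was called in all 4 conditions. At chr8:81347026-81348096, in an intron of Inpp4b with Usp38 as nearest start site, it was called in WT and WTLPS only.

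The member near Ccl2, chr11:81995317-81995549, lay 40.1 kb from the chemokine gene in an intron of Gm31522. It kept H3K27me3 in all 4 conditions, had H3K4me1 in WT only and had no H3K27ac peak in any. The Ccl2 promoter had an H3K27me3 peak in KO, where any width counted, and none of at least 1 kb in WT, where narrower ones were not counted. It had no H3K27ac peak in WT, WTLPS or KO.

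CTCF peaks that stayed in KO were strongest near Ttc30a1, F5 and Scrg1. At chr2:76114485-76114794, in an intron of Pde11a, the −log10 q over WT, WTLPS, KO and KOLPS was 205, 154, 116 and 64.6. At chr1:164134275-164138864, in an intron of Selp, the adhesion molecule P-selectin, with the coagulation factor gene F5 nearest, it was 423, 355, 109 and 57.7, and SMC1 followed with 333, 340, 62.7 and 39.9. That member gained H3K27ac in KO only (6.55) and had no H3K27me3 peak in KO or KOLPS. At chr8:57426876-57430056 near Scrg1 CTCF stood at 127, 84.1, 101 and 48.5, and H3K27me3 was called in WT, WTLPS and KO. No core match lay in the windows of these 3 summits, nor at Pcdh17, Zfp946 and Akr1c18, which says only that the exact letters were not in the 200 bp.

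SMC1, a subunit of the cohesin ring that extrudes chromatin loops and halts at CTCF, was called at 783 members in WT, 18.6% (17.5 to 19.8%). All distal regions stood at 22.1%, active regions at 55.9% and primed regions at 11.8%, so that poised regions exceeded primed ones by 6.77 points (5.59 to 8.01). Distal regions with H3K27me3 under 1 kb only were closer, at 16.4%, 2.22 points (0.477 to 3.95) below the members. The excess over primed regions lay in wide members. Poised and primed shares were 5.98% and 5.97% under 500 bp and 7.87% and 7.72% at 500 bp to 1 kb. They were 33.8% and 18.9% at 2 to 4 kb, a difference of 14.9 points (11.7 to 18.3), and 57.4% and 33.6% at 4 kb and more, a difference of 23.8 (18.5 to 29.0).

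The size of this difference changed with the cover by H3K27me3. Among members covered over at least 50%, which are narrower, SMC1 exceeded primed regions by 1.72 points (0.471 to 3.06). At 2 kb and more, SMC1 was called at 38.6% (34.7 to 42.8%) of 546 members covered over at least 50%, 42.9% of 695 covered less and 22.9% (22.2 to 23.7%) of 11146 primed regions. The excess in wide regions was thus present at both degrees of cover. Of 804 SMC1 summits inside members, 31.6% (28.5 to 34.9%) lay under WT H3K27me3, and for p65 in WTLPS it was 30 of 104 (28.8%). CTCF summits lay there in 136 of 294 cases (46.3%, 40.6 to 52.0%) and STAT5 summits in 60 of 178 (33.7%). WT H3K27me3 covered 55.3% of the bases of all members. SMC1 and p65 were more frequent in wide members, and the cover of the members that hold these summits was not computed. The 55.3% is therefore no baseline for these shares.

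Most members with SMC1 had no CTCF peak. Of the 783, 261 had a WT CTCF peak and 522 did not (66.7%, 63.3 to 69.9%), against 42.3% of primed (40.98 to 43.6%) and 61.7% of active regions (60.7 to 62.8%) with SMC1. The CTCF core lay at 39 of the 261 SMC1 summits (14.9%) and 0 of the 522, which allows up to 0.731%. In KO, SMC1 was called at 576 members (13.7%, 12.7 to 14.8%), against 14.3% of all distal and 5.10% of primed regions. Of the 261 with CTCF, 105 were called in KO (40.2%), and of the 522 without CTCF 63.6% were. In primed regions 21.0% and 37.4% were called. The SMC1 list was shorter in KO (29965 peaks) and KOLPS (17241) than in WT (63638). SMC1 was called at 754 members in WTLPS (17.9%), against 11.0% of primed and 51.7% of active regions. In KOLPS it was 307 members (7.30%), against 2.11% of primed and 28.2% of active regions.

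The 3 strongest SMC1 peaks without CTCF lay at the Plpp3 member described above and near Coq2 and Cenpe. In an intron of Coq2, chr5:100655530-100659662 had SMC1 at a −log10 q of 81.8, 86.5, 53.4 and 36.7 over the same 4 conditions, p65 at 15.98 in WTLPS and H3K27ac at 3.27, 5.12 and 7.29 in WTLPS, KO and KOLPS. Outside genes near Cenpe, a kinesin of mitosis, chr3:135190794-135195785 had SMC1 at 77.1, 93.1, 56.9 and 39.9 and p65 at 18.7 in WTLPS and 18.6 in KOLPS. No H3K27ac peak was called there in any condition. The 3 sites had SMC1 in all 4 conditions and none had CTCF, while H3K27ac differed between them.

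**Figure D4:**
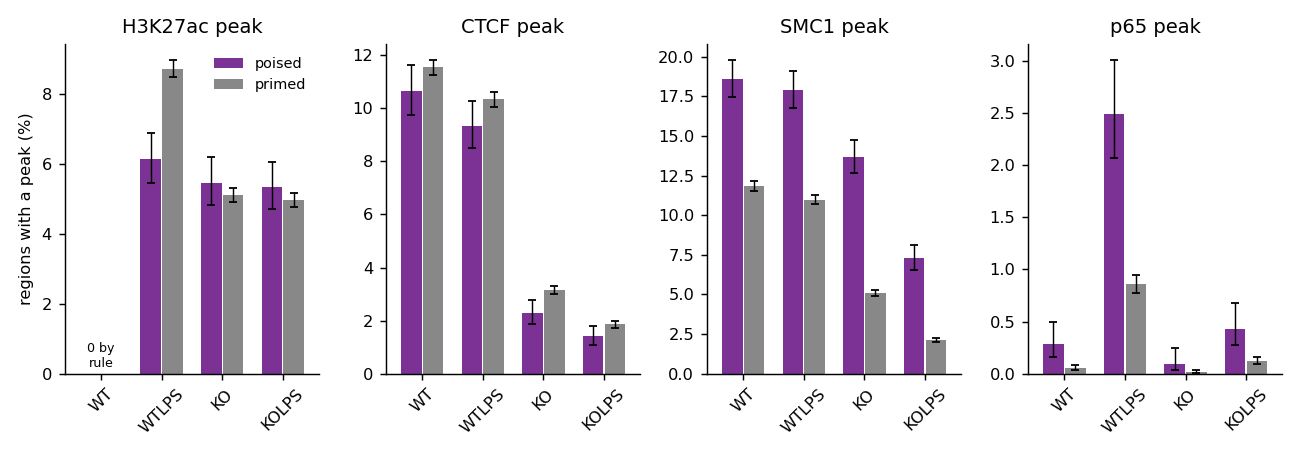
Share of poised (purple) and primed (grey) regions with a peak of H3K27ac, CTCF, SMC1 and p65 in WT, WTLPS, KO and KOLPS, in percent, with 95% Wilson intervals. H3K27ac in WT is 0 by the rule. SMC1 lies higher in poised than in primed regions in all 4 conditions (18.6% and 11.8% in WT), and CTCF falls in both sets in KO (2.28% and 3.14%).

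Members kept each mark in KO at a share close to that in WTLPS. An H3K27me3 peak was called at 2954 members in KO (70.2%, 68.8 to 71.6%) and 2900 in WTLPS (68.9%, 67.5 to 70.3%), and H3K4me1 at 3014 (71.7%) and 3042 (72.3%). H3K4me1 was called in KO at 70.9% of all distal and 63.8% of primed regions, 7.90 points (6.45 to 9.31) below the members. Distal regions with H3K27me3 under 1 kb only stood at 71.6%, a difference of 0.0851 points (-1.97 to 2.16) that includes 0. With members covered over at least 50% the difference from primed regions was 1.48 points (-0.346 to 3.26), which includes 0. In WTLPS, poised and primed regions differed in H3K4me1 by 0.463 points (-0.967 to 1.86).

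The width of H3K27me3 went with its presence in the other conditions. It was called in KO at 52.9% of members with an H3K27me3 peak of 1 to 2 kb, 69.5% at 2 to 4 kb, 81.4% at 4 to 8 kb and 90.5% (88.2 to 92.4%) at 8 kb and more. In WTLPS it was called at 47.6%, 70.6%, 82.0% and 90.8%, and in KOLPS at 13.1%, 21.9%, 34.8% and 45.3%. Over whole H3K27me3 peaks of at least 1 kb, 81.6% of the 4045 that held a member were overlapped in KO, as were 81.6% of all 32948. The background in WTLPS was 70.5% against 79.7% (78.4 to 80.9%) of those that held a member, and in KOLPS 36.4% against 42.7%. The KOLPS list of H3K27me3 held 26960 peaks and those of WT and KO 96475 and 95080, and the part of list size in the KOLPS values was not tested.

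Taken as states, 1977 members had H3K4me1 and H3K27me3 without H3K27ac in KO (47.0%, 45.5 to 48.5%). H3K27me3 alone was called at 19.5%, H3K4me1 alone at 19.4%, H3K27ac at 5.47% and none of the 3 marks at 8.65%. WTLPS gave 47.2%, 17.7%, 19.7%, 6.13% and 9.27%. In KOLPS, 11.8% had both marks, 33.7% H3K4me1 alone and 35.9% none. Both marks without H3K27ac were called in WT, WTLPS and KO at 1292 members (30.7%) and in all 4 conditions at 348 (8.27%). Under a common lowest p for each antibody, 35.4% had both marks in KO.

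**Figure D5:**
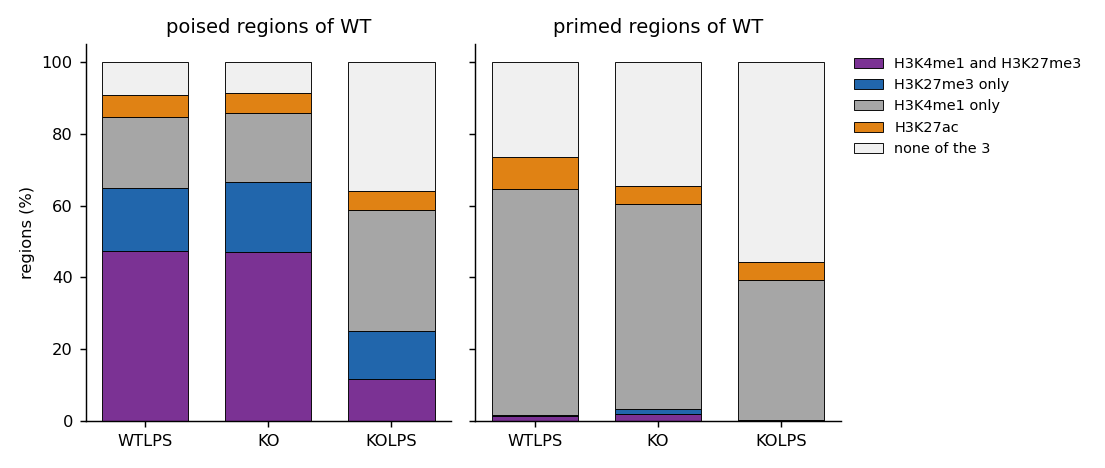
States of the poised and primed regions of WT in WTLPS, KO and KOLPS, in percent of regions, from H3K4me1 and H3K27me3 without H3K27ac (purple) to none of the 3 marks (light grey). H3K27ac (orange) counts regions with that mark whatever the others. Poised regions kept both marks at 47.2% in WTLPS and 47.0% in KO, and at 11.8% in KOLPS.

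In the KO list, H3K27me3 was called more often at members with CTCF in WT than at the others. Members with a WT CTCF peak had H3K27me3 in KO in 79.9% of cases and the others in 69.1%, and in KOLPS in 36.4% and 24.6%. Members with H3K4me3, which had more CTCF, had it in KO in 81.2% (76.7 to 84.9%), against 69.3%. In WTLPS members with and without CTCF had it in 69.6% and 68.9%.

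H3K27ac was called in KO without LPS at 230 members (5.47%, 4.82 to 6.20%), where the background was 5.21%. Primed regions stood at 5.11%, a difference of 0.354 points (-0.324 to 1.11) that includes 0. Regions found poised by the same rule in the KO lists, 3392 of them, had H3K27ac in WT in 5.01% (4.33 to 5.80%), so that the shares with H3K27ac from WT to KO and from KO to WT were close and their intervals overlap. At 4 kb and more, 27.2% of members and 18.3% of primed regions had H3K27ac in KO, a difference of 8.98 points (4.51 to 13.9), while at 500 bp to 1 kb members stood 1.58 points lower (-2.07 to -0.746). In KOLPS it was 225 members (5.35%), against 5.09% of all distal regions without H3K27ac.

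Members with H3K27ac in KO had SMC1 more often than the others, as did primed and active regions. Of the 230, 138 had SMC1 in WT (60%, 53.6 to 66.1%), against 16.2% of the others, and 136 had it in KO. With and without H3K27ac in KO, primed regions had SMC1 in WT at 34.8% and 10.6%, and active regions at 72.04% and 30.8%. H3K27ac in KO rose with width, from 0.406% of members under 500 bp to 27.2% at 4 kb and more, as SMC1 did, and the part of width was not tested. CTCF was called in WT at 37 of the 230 (16.1%, 11.9 to 21.4%), against 10.3% of the others, and in primed regions at 19.3% and 11.1%. Of H3K27ac summits of KO inside members, 115 of 318 (36.2%, 31.1 to 41.6%) lay under WT H3K27me3. The 3 conditions marked partly different regions in both sets. Of 258 members with H3K27ac in WTLPS and 230 in KO, 66 had it in both. Among primed regions 676 had it in both, of 4130 in WTLPS and 2420 in KO. Of the members, 48 had it in WTLPS, KO and KOLPS, 153 in WTLPS only, 125 in KO only and 99 in KOLPS only. No H3K27ac peak was called in any condition at 3685 members (87.6%, 86.6 to 88.6%).

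The 5 strongest H3K27ac peaks of KO at members without one in WTLPS lay nearest to Jade2, Tpra1, Rwdd2b, Muc13 and Tubgcp3, with a −log10 q of 13.6, 12.7, 11.4, 10.2 and 10.2. KOLPS had the peak near Jade2 (14.0), Tpra1 (2.42) and Rwdd2b (1.63). None had p65 in any condition. At chr11:51873243-51877501 near Jade2, a histone acetylation factor, SMC1 was called in all 4 conditions (4.88, 6.40, 9.04 and 4.41) and H3K27me3 in WT and KO.

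At chr16:33754115-33757794, in an exon of Heg1 with Muc13, a mucin, as the nearest start site, CTCF (13.6) was called in WT only, SMC1 in WT, WTLPS and KO, and H3K27me3 in WT, WTLPS and KO. At chr16:87452026-87454726 near Rwdd2b, H3K4me3 stood between 49.3 and 97.9 in the 4 conditions. At chr8:12702065-12706562 near Tubgcp3, of the γ-tubulin complex, STAT5 was 9.55 in WT and 15.0 in KO. The member chr6:89050103-89053386, in an intron of 4933427D06Rik and 148 kb from Tpra1, had none of CTCF, SMC1, p65, STAT5 and H3K4me3 in any list. The 5 members thus shared the new acetylation and no single factor.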

How the data were processed

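ChIP-seq peak lists of mouse BMDCs were used for 8 antibodies. Per the labels and the study's methods, the authors mapped reads to mm10 by BWA, dropped duplicates by Picard and used MACS2 to call peaks against input; the submitters' processing notes name BWA 0.7.12, Picard 1.77, MACS2 2.1.2 and deepTools 3.1.3, and the methods name other versions. The study's reporting summary gives a pair of biological replicates per ChIP-seq condition and describes merging of replicates without naming the assay. The deposited lists are 1 per condition, and whether each was called on merged reads is not stated for them. The values that the authors deposited per peak are a fold enrichment (ratio of pileup to background) and −log10 p-value and −log10 q-value. H3K4me1 and H3K27me3 lists hold broad peaks without a summit, whose values are averages. H3K4me1 peak names carry another antibody supplier's mark than the labels, so the antibody is uncertain. Names show a filter against problem regions for p65 lists alone, and CTCF and SMC1 lists end at a stricter p than the others.

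Peaks shared 1 bp or more to count as overlapping. Promoters, genes and start sites came from 55450 genes of GENCODE vM21. Motif windows were read from GRCm38. Scripts used Python 3.11.15, pandas 2.3.3, numpy 2.4.6, scipy 1.17.1, pysam 0.24.0, samtools 1.23.1 and bedtools 2.31.1, and overlap counting was tested on simulated intervals. Background fragments per base were recovered from the fold and −log10 p of at most 4000 peaks per list. Among broad peaks only a minority gave a level. Overlaps with wide regions are more frequent, so shares were repeated in width classes and in 1 kb centre windows.

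Members, gene lists and tests were chosen with earlier results of these data known. Named members were the 3 with the widest H3K27me3 peak, the 8 with the highest −log10 q of H3K27ac in WTLPS, the 5 of CTCF in WT without KO, the 3 of CTCF in WT and KO, the 3 of SMC1 without CTCF, the 5 of H3K27ac in KO without WTLPS and the 5 of p65 in WTLPS. Genes of lists were named by number of members, at most 8 per list, and some of these are not reported here. The 4 inputs had no list of their own.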

Additional observations from a re-analysis of the deposited data

How the results depend on the processing

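Of 121 values computed under other settings, 81 stayed within the interval of the reported value, 40 moved and 0 changed sign. For the number of members that interval was a set range of 2804 to 6309, not a counting interval. Large falls in that number thus stayed within it. The WT CTCF values could not move under a −log10 q of at least 5, because the lowest in that list was 5.05. The count of 81 includes such values. No paired analysis was possible because each antibody and condition had 1 list, and leaving out a replicate was not possible for the same reason.

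H3K27me3 peaks of at least 2 kb gave SMC1 at 20.01% of members, an SMC1 difference from primed regions of 8.17 points in WT and 9.83 in KO, both marks in KO at 53.1% and an H3K4me1 difference in KO of 9.37 points. Requiring H3K27me3 over at least 50% of the member moved the median width to 847 bp, H3K27ac in WTLPS to 4.61% (difference -4.11), CTCF to 9.16% (-2.38, an interval of -3.43 to -1.23 that excludes 0), SMC1 to 13.6% (1.72 in WT, 4.27 in KO), the H3K4me1 difference in KO to 1.48, p65 to 1.62%, STAT5 to 2.71% and the GC content to 41%. These members, 2839 of the 4206, are narrower by construction. With H3K27me3 peaks of at least 2 kb, 2813 members were left.

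In 1 kb centre windows H3K27ac in WTLPS was 4.78%, CTCF 8.27% (-1.12, an interval that excludes 0), SMC1 13.7% (4.38 in WT, 5.81 in KO), both marks in KO 40.0%, p65 1.498% and STAT5 2.54%. Peaks with a −log10 q of at least 5 gave H3K27ac 1.66% (-0.434), SMC1 17.2%, p65 1.74%, both marks in KO 0% and an H3K4me1 difference of 0.146 points; broad peaks at members had medians near 2, so few passed. A common lowest −log10 p per antibody gave both marks in KO at 35.4%. With 1 member per H3K27me3 peak the median width was 1240 bp. The rule applied to WTLPS, with H3K27ac counted in WT, gave 1886 regions of median width 1257 bp, H3K27ac at 3.76% and a difference of -5.68. Counting summits inside the member, an alternative chosen after seeing the data, gave CTCF at 6.51% and SMC1 at 16.8%.

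With 1 list per condition, differences between conditions include differences between libraries. Coverage was lower for H3K27ac in KO and KOLPS than in WT and WTLPS, and the KOLPS list of H3K27me3 was the shortest of its antibody. An absent peak says that none passed the caller's threshold at that depth, not that the mark or factor was absent.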
